A study of Mus musculus with 12 samples.

Results

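The genes described here are 6 transcription factors of the early endoderm, Foxa2, Sox17, Gata4, Gata6, Sox7 and Hnf4a, chosen by symbol from the 55487 genes of a mouse RNA-seq count table. Polyadenylated RNA came from clones of the embryonic stem cell line E14 Tg2a, and 4 groups of 3 libraries each were sequenced. EpiLC KO was 3 independent clones with a knockout of Pcbp1, an RNA-binding protein gene, grown for 48 h in N2B27 medium with 12 ng/ml bFGF, 20 ng/ml activin A and 1% KOSR (a serum replacement) on fibronectin, which yields epiblast-like cells (EpiLCs). EpiLC WT was 3 independent control clones in the same medium, named Scr in the series text and wild type (WT) in the sample labels. Naive KO and naive WT were the Pcbp1 knockout and control clones in serum-free N2B27 with LIF, the MEK inhibitor PD0325901 (1 uM) and the GSK3 inhibitor CHIR99021 (3 uM). All groups share the parental line, and neither the guide nor the kind of mutation is given in the labels. The libraries held between 27146744 and 42204511 counts. The series asks what the loss of Pcbp1 changes in the passage from naive cells to EpiLCs.

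GATA6 and GATA4 are zinc-finger factors of the primitive endoderm, the lineage of the blastocyst that gives rise to the visceral and parietal endoderm, and forced expression of either turns mouse embryonic stem cells towards that fate. SOX17 and SOX7 are related HMG-box factors that act after GATA6 in the same lineage, and SOX17 acts again in the definitive endoderm of the gastrulating embryo. FOXA2, a forkhead factor, marks the visceral endoderm, the anterior primitive streak and the definitive endoderm. HNF4A, a nuclear receptor, is needed for the function of the visceral endoderm and later of the liver. In the blastocyst FGF signalling through ERK favours GATA6 over NANOG, and in the gastrulating embryo NODAL signalling, which activin A imitates in culture, drives the definitive endoderm.

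RefSeq promoters are shown for 2 of the 6 genes, Foxa2 and Hnf4a (build GRCm38.p6). None was at hand for Sox17, Gata4 or Sox7, and the remaining gene was left out. The counts of Foxa2 and Hnf4a had different patterns, as the later paragraphs give. Foxa2 has 3 annotated starts, of which the outermost is the start of the gene in the count table, and Hnf4a has 2, the upstream one known from the pancreas and the downstream one from adult liver. The counts are summed over each gene, so they do not say which start was used. Capitals mark matches on either strand to 4 short motifs chosen with the sequences in view: AGATAA for GATA factors, TGTTTGT for forkhead factors, ACAATG for SOX factors, and CAAAGTCCA for HNF4.
Foxa2, chr2:148046970-148047219, minus strand, the 250 bases before the outermost start: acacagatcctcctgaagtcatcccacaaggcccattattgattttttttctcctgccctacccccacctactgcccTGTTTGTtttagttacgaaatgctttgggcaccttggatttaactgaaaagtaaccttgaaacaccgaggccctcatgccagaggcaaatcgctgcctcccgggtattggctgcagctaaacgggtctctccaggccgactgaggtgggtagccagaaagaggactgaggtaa
Hnf4a, chr2:163506607-163506837, plus strand, a stretch of 231 bases before the upstream start: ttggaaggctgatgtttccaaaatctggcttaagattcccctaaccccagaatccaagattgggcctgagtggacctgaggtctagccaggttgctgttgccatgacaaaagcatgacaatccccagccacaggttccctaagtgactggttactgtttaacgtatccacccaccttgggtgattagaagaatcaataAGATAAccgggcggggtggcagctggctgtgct
Hnf4a, chr2:163546905-163547154, plus strand, the 250 bases before the downstream start: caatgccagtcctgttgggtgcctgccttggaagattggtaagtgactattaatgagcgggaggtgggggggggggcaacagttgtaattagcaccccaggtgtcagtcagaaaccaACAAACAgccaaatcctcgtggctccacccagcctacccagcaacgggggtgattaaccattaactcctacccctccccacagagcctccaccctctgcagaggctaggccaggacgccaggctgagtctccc
The Foxa2 sequence held the forkhead letters TGTTTGT, 173 bases before the start. Of the other 2 Foxa2 starts, which lie within the gene and are not printed, the innermost (148045464) had AGATAA 183 bases before it and the middle one had no match. The upstream Hnf4a sequence held the GATA letters AGATAA, 52 bases before the RefSeq start at 163506857. The printed stretch ends short of that start. In the count table the gene starts at 163506808, so the stretch and these letters reach into the gene as counted. The downstream Hnf4a sequence held the forkhead letters in the other orientation (ACAAACA). Of all 32851 promoters in the table, 9.99% held AGATAA, 5.84% TGTTTGT, 10.7% ACAATG and 0.384% CAAAGTCCA in the 250 bases before the start. These matches describe the letters only.

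Gata6 lies on chromosome 18 (11052064 to 11085635, plus strand) and Sox17 on chromosome 1 (4490931 to 4497354, minus strand), in the GRCm38 coordinates of the deposited table. Gata4 (63198922 to 63271692, minus strand) and Sox7 (63943673 to 63950732, plus strand) are neighbours on chromosome 14, 0.672 Mb apart. Foxa2 (148042877 to 148046969, minus strand) and Hnf4a (163506808 to 163572910, plus strand) are both on chromosome 2. Exons of 2 of the genes overlap another gene, and counting was without regard to strand. Sox17 shares 16.8% of its exon bases with Gm37587, which had 0 counts in every library. Reads that fell on both genes were dropped by the default counting, so the 0 counts do not show that Gm37587 was silent. Gata6 shares 1.4% with 1010001N08Rik, transcribed from the other strand.

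All 6 genes were low in every group. Levels between genes are compared as FPKM, which divides the scaled count by the summed exon length in kilobases. For Sox17 that length includes the bases shared with Gm37587, whose reads were dropped, so its FPKM and its place in each order may be too low. The median over the 18134 genes tested was 2.51 FPKM in EpiLC KO, 2.54 FPKM in EpiLC WT, 2.77 FPKM in naive KO and 2.68 FPKM in naive WT, and the mean of each of the 6 genes was below it in every group. The highest mean was that of Gata6 in EpiLC KO, at 1.44 ± 0.274 FPKM (SD, n = 3), where 58.4% of the genes tested were higher. In EpiLC KO the order after Gata6 was Gata4 (0.724 ± 0.294 FPKM), Sox7 (0.584 ± 0.209 FPKM), Foxa2 (0.344 ± 0.0499 FPKM), Hnf4a (0.302 ± 0.0469 FPKM) and Sox17 (0.241 ± 0.0662 FPKM). The lowest Gata6 library, at 1.12 FPKM, was above the highest Gata4 library, at 1.05 FPKM, and each later pair of neighbours in the order overlapped.

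The order differed in the other groups. In EpiLC WT it was Gata6 (0.297 ± 0.37 FPKM), Hnf4a (0.176 ± 0.0831 FPKM), Gata4 (0.138 ± 0.068 FPKM), Sox7 (0.0754 ± 0.0525 FPKM), Foxa2 (0.0472 ± 0.0188 FPKM) and Sox17 (0.0449 ± 0.0241 FPKM), and every pair of neighbours overlapped. In naive KO Hnf4a came first (0.337 ± 0.228 FPKM), before Gata6 (0.134 ± 0.0353 FPKM) and Gata4 (0.0803 ± 0.0102 FPKM), and these 3 did not overlap, with Sox17, Sox7 and Foxa2 all at or under 0.0193 FPKM in each library. In naive WT Gata4 (0.185 ± 0.0934 FPKM) and Gata6 (0.136 ± 0.084 FPKM) overlapped, and the other 4 genes had means between 0.0377 and 0.0479 FPKM. Hnf4a was thus the highest of the 6 in naive KO and the fifth in EpiLC KO.

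In EpiLCs, Gata6, Gata4, Sox17, Sox7 and Foxa2 rose in KO clones relative to WT clones, by 4.92-fold to 7.74-fold, and Hnf4a did not pass the test. That is 5 of 6, where 7.22% of the 18134 genes tested were called higher in KO and 7.86% lower (edgeR quasi-likelihood test, Benjamini-Hochberg adjusted p under 0.05 over all genes). The count is a description of the chosen genes: Foxa2, Sox17 and Sox7 reached more than 11 counts in EpiLC KO libraries only, so they passed the filter on low counts through the group where they were high. The bulk libraries cannot tell a few cells with much of these RNAs from many cells with little.

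Gata6 had raw counts of 318, 397 and 365 in EpiLC KO replicates 1, 2 and 3, against 23, 126 and 14 in EpiLC WT. The groups did not overlap, and WT replicate 2 stood above the other WT libraries. All 3 KO libraries lay above all 3 WT libraries in CPM for 16.1% of the genes tested. In CPM, counts scaled by the size of the library with TMM factors, Gata6 averaged 9.36 ± 1.78 in EpiLC KO and 1.93 ± 2.41 in EpiLC WT (SD, n = 3 each), a log2 fold change of 2.30 ± 0.692 (SE; adjusted p = 0.0425 in edgeR). Without WT replicate 2 the log2 fold change was 4.09 (adjusted p = 0.000307). The call was lost, with log2 fold changes of 1.83 to 2.45, when only the EpiLC libraries were fitted (adjusted p = 0.0839) and when any 1 of 8 other libraries was left out: EpiLC KO 1, 2 or 3, EpiLC WT 1 or 3, naive KO 1 or 2, or naive WT 3 (adjusted p from 0.0502 to 0.122). The overlapping 1010001N08Rik had 20, 22 and 10 counts in EpiLC KO, 2, 2 and 0 in EpiLC WT, and at most 1 in each naive library.

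Gata4 had 110, 155 and 66 counts in EpiLC KO, against 11, 22 and 15 in EpiLC WT. Every KO library was above every WT library, and KO replicate 3 was the lowest of the KO libraries. Gata4 averaged 2.83 ± 1.15 CPM in EpiLC KO and 0.539 ± 0.265 CPM in EpiLC WT, a log2 fold change of 2.41 ± 0.450 (adjusted p = 0.00462).

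Sox17 and Sox7 both had their highest KO library in replicate 2. Sox17 had 37, 56 and 40 counts in EpiLC KO and 4, 9 and 6 in EpiLC WT, with a log2 fold change of 2.45 ± 0.433 (adjusted p = 0.00348). Sox7 had 84, 99 and 44 counts in EpiLC KO and 10, 11 and 2 in EpiLC WT, with a log2 fold change of 2.95 ± 0.560 (adjusted p = 0.00496). Neither gene's groups overlapped. In EpiLC KO Sox7 averaged 0.584 FPKM, against 0.241 FPKM for Sox17, and the ranges of the libraries did not overlap. Reads dropped from Sox17 where it overlaps Gm37587 were not corrected for in this comparison.

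Foxa2 had 32, 36 and 27 counts in EpiLC KO, against 6, 2 and 3 in EpiLC WT. It averaged 0.816 ± 0.118 CPM in EpiLC KO and 0.112 ± 0.0445 CPM in EpiLC WT, a log2 fold change of 2.78 ± 0.480 (adjusted p = 0.00311). Relative to their mean, the KO libraries lay closer together than those of the other 4 genes that rose. The summed counts, 95 in KO and 11 in WT, gave a ratio of 6.95 per scaled library, with an exact 95% interval of 3.71 to 14.4 that covers counting error only.

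Hnf4a had 54, 64 and 51 counts in EpiLC KO, against 25, 35 and 17 in EpiLC WT. After scaling for library size the groups overlapped, since KO replicate 1 had 1.24 CPM and WT replicate 2 had 1.31 CPM. The log2 fold change was 0.79 ± 0.462 (95% interval -0.21 to 1.79, adjusted p = 0.277).

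**Figure D1:**
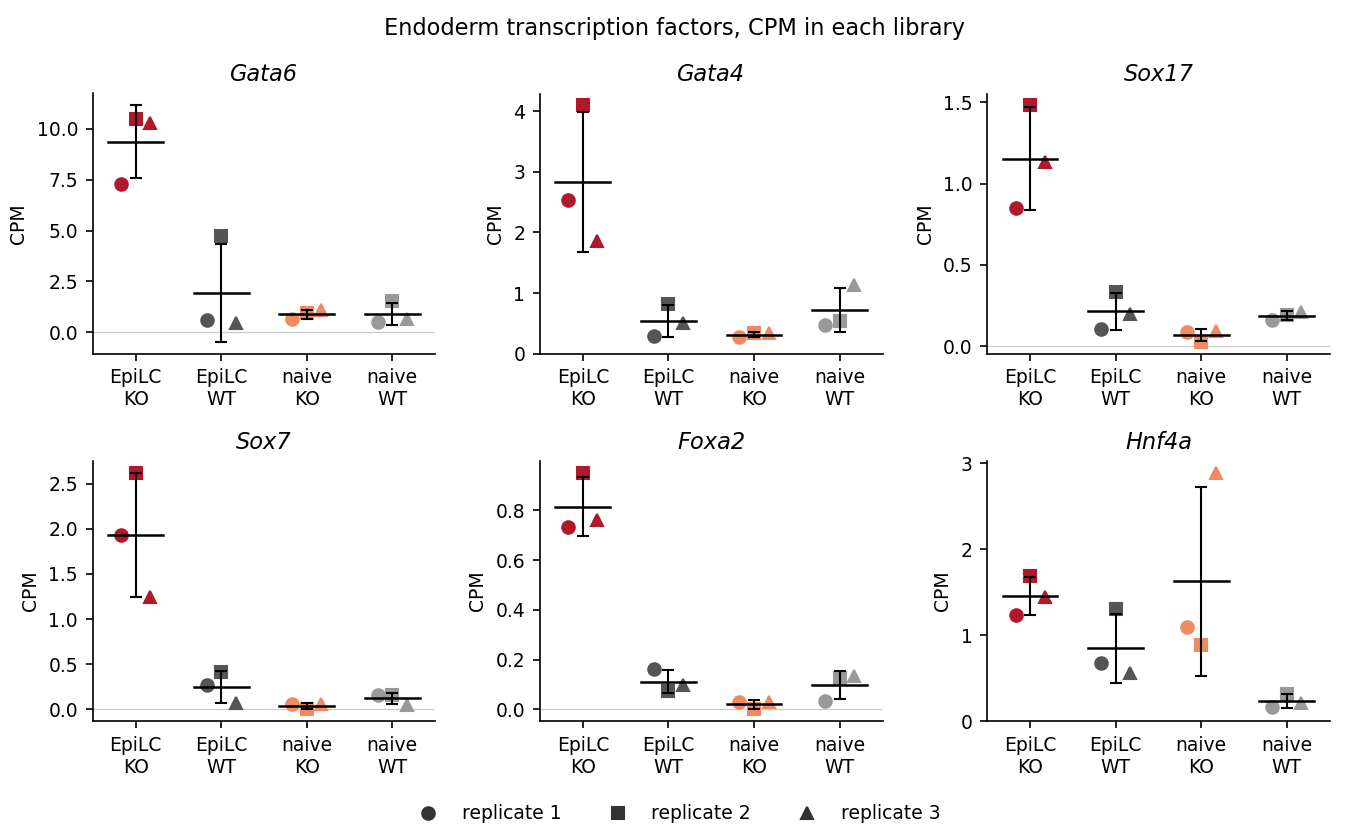
CPM (counts scaled by library size) of each gene on the vertical axis in the 12 libraries, by group on the horizontal axis; symbols are replicates, black lines the mean and bars the SD (n = 3). Gata6, Gata4, Sox17, Sox7 and Foxa2 are highest in all 3 EpiLC KO libraries, and Hnf4a is high in naive KO as well, most of all in replicate 3.

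KO replicate 2 had the highest CPM of the EpiLC KO libraries for every 1 of the 6 genes, from 0.951 CPM for Foxa2 to 10.5 CPM for Gata6. Among the EpiLC WT libraries, replicate 2 was highest for Gata6 (4.71 CPM), Gata4 (0.822 CPM), Sox17 (0.336 CPM), Sox7 (0.411 CPM) and Hnf4a (1.31 CPM), and lowest for Foxa2 (0.0747 CPM). The summed level of the 6 genes ran from 14.6 to 21.3 CPM in EpiLC KO and from 1.9 to 7.66 CPM in EpiLC WT.

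In naive cells Hnf4a alone of the 6 genes rose in KO, and the other 5 genes were at single or low double digits of counts in most libraries. Of the 18134 genes tested, 9.23% were called in either direction in this comparison, 4.27% as higher in KO and 4.95% as lower. Hnf4a had 37, 32 and 94 counts in naive KO, against 5, 10 and 8 in naive WT. The groups did not overlap, and KO replicate 3 stood above the other KO libraries. Hnf4a averaged 1.63 ± 1.1 CPM in naive KO and 0.231 ± 0.0817 CPM in naive WT, a log2 fold change of 2.80 ± 0.525 (adjusted p = 0.00663), and the call held without any 1 library (adjusted p up to 0.0377).

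Foxa2 had 1, 0 and 1 counts in naive KO, against 1, 4 and 5 in naive WT, and the log2 fold change of -2.14 ± 0.805 did not pass the test (adjusted p = 0.122). Sox17 had 3, 1 and 3 counts in naive KO and 5, 6 and 8 in naive WT (log2 fold change -1.41 ± 0.584, adjusted p = 0.161). Gata4 had 9, 12 and 11 counts in naive KO and 15, 17 and 43 in naive WT (log2 fold change -1.21 ± 0.484, adjusted p = 0.146). In CPM the KO libraries of these 3 genes were all under the WT libraries, which was so for 15.3% of the genes tested; for Foxa2 this rests on scaling, since 2 KO libraries and WT replicate 1 each held 1 count. No member was called lower by edgeR or DESeq2, and at an unadjusted p under 0.05 edgeR had 3 lower and DESeq2 1.

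Sox7 had 2, 0 and 2 counts in naive KO and 5, 5 and 2 in naive WT, and its groups overlapped (log2 fold change -1.54 ± 0.924, adjusted p = 0.345). Gata6 had 21, 33 and 35 counts in naive KO and 15, 47 and 25 in naive WT, a log2 fold change of -0.01 ± 0.742 with a 95% interval of -1.62 to 1.60 (adjusted p = 0.998). Its summed counts, 89 in naive KO and 87 in naive WT, gave a ratio of 1 (exact 95% interval 0.738 to 1.36, counting error only). The wider interval of the fit also holds the spread between libraries, estimated over all 4 groups. Changes of Gata6 within that wider interval are not excluded.

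**Figure D2:**
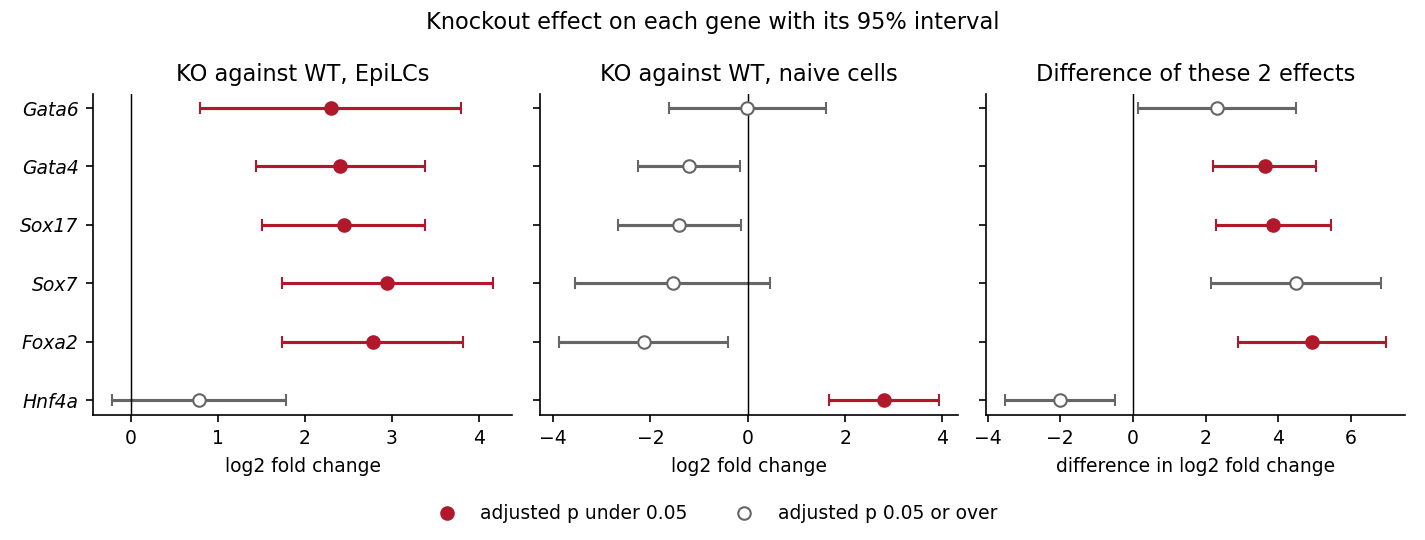
Log2 fold change of KO against WT in EpiLCs (left) and naive cells (middle), and the difference between these 2 effects (right), for each gene with its 95% interval from the edgeR fit (n = 3 per group); filled points have an adjusted p under 0.05. Hnf4a has the only filled point in naive cells, at 2.80, and the only open one in EpiLCs, at 0.79.

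Whether the knockout effect differed between the 2 conditions was tested as an interaction. Foxa2, Sox17 and Gata4 were called, where 0.381% of all genes tested were called (0.259% in the positive direction). Foxa2 and Sox17 passed the filter on low counts through EpiLC KO, where they are high, so their calls are a description and no support. The knockout effect on Foxa2 was larger in EpiLCs by 4.93 ± 0.934 on the log2 scale (adjusted p = 0.0482), that on Sox17 by 3.86 ± 0.726 (adjusted p = 0.0478) and that on Gata4 by 3.62 ± 0.659 (adjusted p = 0.0412). The clone was also entered as a block, which pairs the naive and EpiLC library of the same genotype and number, taken as 1 clone. Gata4 was then called (3.55, adjusted p = 0.0331), and so was Gata6 (2.75, adjusted p = 0.0458). Foxa2 (4.90, adjusted p = 0.0783) and Sox17 (3.86, adjusted p = 0.0526) were not. These calls lie close to the threshold: with 1 library left out, between 0 and 3 of the 6 genes were called, and 0 without any 1 of 8 libraries, which were EpiLC KO 1, 2 or 3, EpiLC WT 1 or 3, naive KO 1 or 2, or naive WT 3.

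The same difference was 4.49 ± 1.08 for Sox7 (adjusted p = 0.111), 2.31 ± 1.01 for Gata6 (adjusted p = 0.375) and -2.01 ± 0.698 for Hnf4a (adjusted p = 0.243). Hnf4a, which rose in naive KO and was not called in EpiLC KO, is therefore not shown to differ between conditions. Without WT replicate 2 in EpiLCs the difference for Gata6 was 4.10 (adjusted p = 0.0146).

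From naive cells to EpiLCs, the KO clones and the WT clones were each compared with themselves. These comparisons share their libraries with the ones above, so they restate the same counts along the other axis. In KO clones, Gata6, Gata4, Sox17, Sox7 and Foxa2 were higher in EpiLCs, 5 of 6, where 27.1% of all genes tested were called higher, 28.1% lower and 55.2% in either direction. The EpiLC KO libraries of these 5 genes all lay above the naive KO libraries, as they did for 31.4% of the genes tested. Foxa2, Sox17 and Sox7 passed the filter on low counts through EpiLC KO, where they are high, so their calls are a description and no support. Sox7 had 227 counts summed over EpiLC KO and 4 over naive KO, a ratio of 49.5 (exact 95% interval 19.1 to 183), and Foxa2 had 95 and 2, a ratio of 41.5 (11.2 to 347). The log2 fold changes were 5.49 ± 0.713 for Sox7 (adjusted p = 3.48e-05), 5.14 ± 0.621 for Foxa2 (adjusted p = 1.94e-05), 3.99 ± 0.499 for Sox17 (adjusted p = 2.54e-05), 3.42 ± 0.734 for Gata6 (adjusted p = 0.0016) and 3.16 ± 0.471 for Gata4 (adjusted p = 0.000107). Hnf4a had 169 counts over EpiLC KO and 163 over naive KO, with a log2 fold change of -0.16 ± 0.444 (95% interval -1.12 to 0.80, adjusted p = 0.785).

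In WT clones Hnf4a alone rose in EpiLCs, 1 of 6, where 26.4% of all genes tested were called higher, 26.3% lower and 52.7% in either direction. Its 25, 35 and 17 counts in EpiLC WT stood against 5, 10 and 8 in naive WT, a log2 fold change of 1.85 ± 0.538 (adjusted p = 0.0113). Its groups did not overlap, as was so upward for 29.3% and downward for 29.9% of the genes tested, and those of the other 5 genes overlapped. The other 5 genes had log2 fold changes between -0.46 for Gata4 and 1.11 for Gata6, with adjusted p from 0.217 to 0.883. Of these, Gata6 rested on replicate 2: without that EpiLC library its log2 fold change was -0.69. Hnf4a thus reached in naive KO (0.891 to 2.89 CPM) a level that overlapped EpiLC KO (1.24 to 1.69 CPM) and EpiLC WT (0.565 to 1.31 CPM), and only naive WT, at 0.16 to 0.32 CPM, lay below all the others.

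Gata4 and Sox7 lie in a segment of chromosome 14 that was lower in WT replicate 2. Over the 78 tested genes within 5 Mb of Gata4, the median deviation from the group mean was -0.62 on the log2 CPM scale in EpiLC WT replicate 2 and -0.635 in naive WT replicate 2. It lay between 0.292 and 0.344 in the other 4 WT libraries and between -0.026 and 0.014 in the 6 KO libraries. The neighbours' median log2 fold change of KO against WT was 0.263 in EpiLCs and 0.261 in naive cells. Without WT replicate 2 in both conditions it was 0.043 and 0, over the 81 neighbours that passed the filter in that fit.

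Gata4 and Sox7 lay on the other side of their group means from their neighbours in EpiLC WT replicate 2, on low counts. There Gata4 deviated from its group mean by 0.658 and Sox7 by 0.811, both upward, where the neighbours deviated by -0.62. The EpiLC WT counts in replicates 1, 2 and 3 were 11, 22 and 15 for Gata4 and 10, 11 and 2 for Sox7. Whether these deviations exceed counting error was not tested. In naive WT replicate 2, where the neighbours deviated by -0.635, Gata4 deviated by -0.277, in the same direction, and Sox7 by 0.325. Without WT replicate 2 in both conditions the log2 fold change of KO against WT in EpiLCs was 2.84 for Gata4 (adjusted p = 0.00366) and 3.44 for Sox7 (adjusted p = 0.00512), both larger than with it. The windows of the other 4 genes, with 20 to 107 tested neighbours each, had medians between -0.197 and 0.243 in every library.

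**Figure D3:**
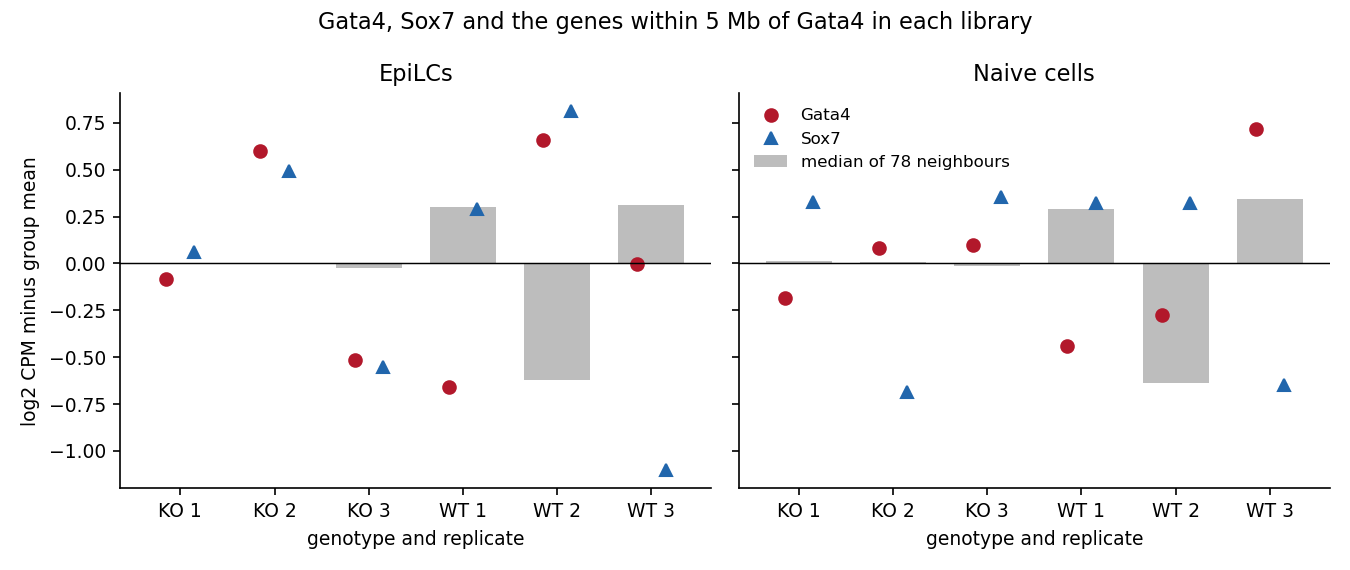
Deviation of log2 CPM from the mean of the library's group, for Gata4 (circles), Sox7 (triangles) and the median of 78 tested genes within 5 Mb of Gata4 (grey bars), in each EpiLC library (left) and naive library (right). The bars are lowest in WT replicate 2, at -0.62 in EpiLCs and -0.635 in naive cells, while Gata4 and Sox7 lie above 0 in EpiLC WT replicate 2.

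Genes with a pattern like that of each factor were found by the root mean square difference of centred log2 CPM (prior count 2) over the 12 libraries, as a description. Genes known only by a clone or predicted-gene symbol were left out of those named. Sox17 and Gata4 were each other's nearest of 18133 genes, at 0.41, and Foxa2 took place 4 among those nearest to Sox17, at 0.472. Of the genes with names, the nearest to Foxa2 were Stum (0.393), Runx1 (0.417) and Shisal2b (0.455), and Shisal2b was also among the 3 nearest to Sox17 (0.451) and to Sox7 (0.641). Lmcd1 (0.588) and R3hdml (0.687) completed the 3 for Sox7, and Sox10 (0.556) and Dync1i1 (0.574) those for Gata4. Gata6 was nearest to Kcnk9 (0.591), Pla2g7 (0.637) and Tnfsf4 (0.647), and its place among the genes nearest to Gata4 was 352. Hnf4a was nearest to Pcdh9 (0.539), Wdr95 (0.559) and Itpr2 (0.56), and none of the other 5 factors was nearer to it than place 12545. With a prior count of 0.5 the nearest named gene changed for 4 factors, to Shisal2b for Sox17 (0.531, before Gata4 at 0.564) and for Foxa2 (0.684), Trim38 for Gata6 (0.727) and Prss42 for Hnf4a (0.538). Over all genes the median difference was 1.21 to 1.78 with a prior count of 2 and 1.30 to 2.20 with 0.5. These RNAs share the low counts that flatten such a measure.

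The regulators that work with these factors were read from lists of other genes. Of 13 tested other endoderm regulators, 4 rose and 1 fell in EpiLC KO, with a median log2 fold change of 0.80, against 0 over all genes tested. Of all genes tested, 7.22% were called higher and 7.86% lower in this comparison. Lhx1, a LIM homeobox gene of the anterior visceral endoderm and the node, had 1.89 ± 0.881 CPM in EpiLC KO and 0.117 ± 0.11 CPM in EpiLC WT (log2 fold change 3.90, adjusted p = 0.00278). Its mean was lower still in both naive groups, so Lhx1 passed the filter on low counts through EpiLC KO, and its call is a description. Zfpm1, which encodes the GATA cofactor FOG1, rose by 0.84 (adjusted p = 0.0161), and Gsc and Eomes, genes of the primitive streak, rose by 2.02 (adjusted p = 0.0203) and 1.01 (adjusted p = 0.035) on the log2 scale. In EpiLC KO, EpiLC WT, naive KO and naive WT, Gsc averaged 0.404, 0.1, 12.5 and 17.2 CPM, so it was far lower in EpiLCs of both genotypes. In the same order Zfpm1 averaged 9.54, 5.33, 10.6 and 10.4 CPM, and Eomes 15.7, 7.76, 2.63 and 1.86 CPM. With 1 library left out, Eomes was lost without EpiLC KO 1 or 3 or EpiLC WT 1 or 3 (adjusted p up to 0.113), Gsc without EpiLC KO 2 or WT 1 (up to 0.0767) and Zfpm1 without EpiLC KO 1 or WT 3 (up to 0.0587).

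Close relatives of the factors that rose did not all rise. Sox18, of the same subfamily as Sox7 and Sox17, had 0.291 ± 0.0225 CPM in EpiLC KO and 0.878 ± 0.437 CPM in EpiLC WT (log2 fold change -1.59, adjusted p = 0.0487, up to 0.153 and lost without any 1 of EpiLC KO 1, 2 or 3, EpiLC WT 1 or 3, naive KO 1 or 2, or naive WT 3), and DESeq2 called none of the 13 lower, with 1 lower at an unadjusted p under 0.05. Foxa1 had a log2 fold change of 1.13 (adjusted p = 0.181) and Foxa3 one of -0.57 (adjusted p = 0.525). Gata5 and Hnf4g were too low to test, with 0 counts in both WT groups. In naive cells none of the 13 passed in edgeR, where 2 were lower at an unadjusted p under 0.05, and DESeq2 called 1 lower.

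Of 21 tested effectors of the extraembryonic endoderm, 4 rose and 1 fell in EpiLC KO, with a median of 0.12 (log2). Over all genes tested 7.22% were called higher and 7.86% lower. Cubn, an endocytic receptor of the visceral endoderm, had 13.2 ± 1.71 CPM in EpiLC KO and 1.85 ± 1.28 CPM in EpiLC WT (log2 fold change 2.85, adjusted p = 0.000821). Lama1, a laminin chain of the basement membrane, rose by 2.59 (adjusted p = 0.000922), Afp, the alpha-fetoprotein gene, by 4.12 (adjusted p = 0.00164) and Pdgfra, a receptor gene of the primitive endoderm, by 2.55 (adjusted p = 0.00361). Lama1 averaged 41 CPM in EpiLC KO and 6.88 CPM in EpiLC WT, under the 431 CPM of naive KO and the 261 CPM of naive WT. Afp averaged at most 0.122 CPM outside EpiLC KO, so it passed the filter through that group, and its call is a description. Rbp4, a retinol carrier gene, fell by 1.38 (adjusted p = 0.0312, up to 0.123 and lost without EpiLC KO 1 or 2 or EpiLC WT 1 or 2). Ttr and Apoa1, abundant RNAs of the mature visceral endoderm, stayed under the filter, with means of 0.00881 and 0.0605 CPM in EpiLC KO and 0 and 0.0588 CPM in EpiLC WT. In naive KO Col4a1 rose by 1.56 (adjusted p = 0.00948) and Lamc1 fell by 0.46 (adjusted p = 0.0331, up to 0.122 and lost without naive KO 1 or 2 or any naive WT library).

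**Figure D4:**
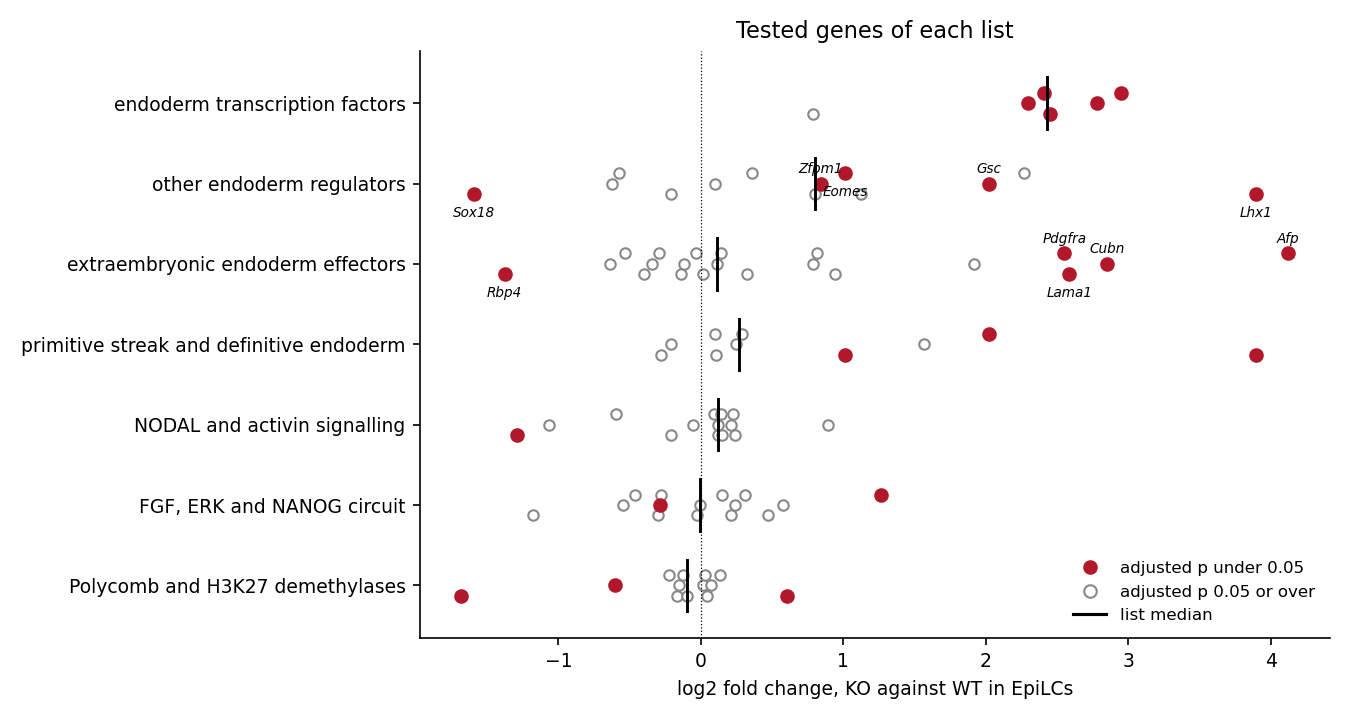
Log2 fold change of KO against WT in EpiLCs on the horizontal axis for each tested gene of 7 lists (rows); filled points have an adjusted p under 0.05 and black lines are list medians. The endoderm transcription factors have a median of 2.43 and the other endoderm regulators one of 0.80, and the genes called in the regulator and extraembryonic lists are named.

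For the signalling upstream of these factors, counts are read against the 15.1% of all genes tested that were called in either direction in EpiLCs. Of 14 genes of NODAL and activin signalling, 1 fell and none rose in EpiLC KO: Foxh1, the forkhead partner of SMAD2, with 43.9 ± 4.04 CPM in EpiLC KO and 107 ± 15.3 CPM in EpiLC WT (log2 fold change -1.29, adjusted p = 0.000192). None rose by edgeR, where 1 was higher at an unadjusted p under 0.05, and DESeq2 called 1 higher. In naive KO 5 of the 14 fell, where 4.95% of all genes tested were called lower and 9.23% in either direction. The alternatives called from 3 to 5 of them in naive KO, so not all of these 5 calls held. Foxh1 (log2 fold change -1.14, adjusted p = 0.000499) and Lefty2 (log2 fold change -3.07, adjusted p = 0.00303) had the smallest adjusted p. Of 10 tested genes of the primitive streak and definitive endoderm, 3 rose in EpiLC KO and none fell, and these were Lhx1, Gsc and Eomes, which the regulator list also holds. Of these, Lhx1 passed the filter through EpiLC KO, as given above.

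Of 15 genes of the FGF, ERK and NANOG circuit, 1 rose and 1 fell in EpiLC KO, a share near that of all genes, and the alternatives called 1 to 5, against 1 to 3 for the NODAL list. Spry2, a feedback inhibitor of ERK signalling, rose in EpiLC KO by 1.27 (adjusted p = 0.00118), and Etv5, an ERK-responsive ETS factor gene, fell by 0.29 (adjusted p = 0.023, up to 0.075 and lost without EpiLC WT 1 or any EpiLC KO library). In naive KO 3 of the 15 rose, where 4.27% of all genes tested were called higher. Dusp6 (log2 fold change 1.01, adjusted p = 0.0084) and Spry2 (log2 fold change 0.87, adjusted p = 0.0115, up to 0.061 and lost without naive KO 1 or naive WT 1) came first. Nanog itself averaged 76.2 CPM in EpiLC KO and 55 CPM in EpiLC WT, and 742 CPM in naive KO and 820 CPM in naive WT. Of 13 genes of Polycomb complexes and H3K27 demethylases, Rnf2, a PRC1 ubiquitin ligase gene, rose in EpiLC KO by 0.61 (adjusted p = 0.0237, up to 0.107 and lost without EpiLC KO 1 or EpiLC WT 1 or 3). Ezh1, a methyltransferase of PRC2, fell by 0.61 (adjusted p = 0.0109, and 0.0507 without EpiLC KO 1). Phf19, a PRC2 accessory gene, fell by 1.68 (adjusted p = 0.0409, up to 0.176 and lost without any 1 of the EpiLC KO libraries, EpiLC WT 2, naive KO 1 or naive WT 3). In naive KO none of the 13 passed by edgeR, with 2 lower at an unadjusted p under 0.05, and DESeq2 called 1 lower.

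Markers of pluripotent stem cells, the labelled cell type, were present in all groups. Pou5f1, which encodes OCT4, averaged 720 CPM in EpiLC KO, 622 CPM in EpiLC WT, 656 CPM in naive KO and 655 CPM in naive WT, levels that do not tell EpiLCs from naive cells. Of the 7 markers on the list, none was called in EpiLC KO by edgeR, with 1 higher at an unadjusted p under 0.05, and DESeq2 called 1 higher. In naive KO Lin28a, an RNA-binding protein gene, rose to 68.8 ± 32.7 CPM, against 22.4 ± 11.4 CPM in naive WT (adjusted p = 0.0256, up to 0.0872 and lost without naive KO 1 or 3 or naive WT 2 or 3). The targeted gene Pcbp1 lay between 250.3 and 301.8 CPM in EpiLC KO and between 511.9 and 692.1 CPM in EpiLC WT. It lay between 295.3 and 302.9 CPM in naive KO and between 417.9 and 475.4 CPM in naive WT. Its RNA was thus lower in the KO clones but not lost, with log2 fold changes of -1.14 ± 0.112 in EpiLCs (adjusted p = 0.000137) and -0.60 ± 0.111 in naive cells (adjusted p = 0.00599).

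Markers of other cell types were summed over each list. Of 8 fibroblast markers the sum was 19.9 to 34.4 CPM in EpiLC KO and 10.6 to 19 CPM in EpiLC WT, and 5.35 to 8.86 CPM in naive KO and 3.29 to 4.55 CPM in naive WT. Its most abundant genes were Col1a2, with 13 CPM in EpiLC KO and 3.36 CPM in EpiLC WT, and Dcn, with 7.48 CPM in EpiLC KO and 5.82 CPM in EpiLC WT. Of 8 markers of 2-cell-like cells in the table it was 2.45 to 34.5 CPM in EpiLC KO, where replicate 2 held the highest value, and 1.23 to 6.35 CPM in EpiLC WT. Zscan4d and Zscan4a, near-identical copies whose shared reads the default counting drops, led this list with 3.75 and 2.91 CPM in EpiLC KO and 1.01 and 0.906 CPM in EpiLC WT. The 9 trophoblast markers summed to 6.63 to 8.82 CPM in EpiLC KO and 9.9 to 10.4 CPM in EpiLC WT, led by Ascl2 and Krt7, with Prl3d1 and Tpbpa at 0 in every library. The 7 liver and gut markers summed to 1.29 to 1.75 CPM in EpiLC KO and 2.66 to 3.17 CPM in EpiLC WT, led by Vil1 (Cdx1 in naive cells), with Fabp2 and Serpina1a at 0 in every library. The 7 neuroectoderm markers, led by Nes and Tubb3, summed to 45 to 68.6 CPM in EpiLC KO and 34.7 to 79.9 CPM in EpiLC WT. The 11 cardiac and endothelial markers, led by Pecam1 and Tek, summed to 99.9 to 131 CPM in EpiLC KO and 100 to 147 CPM in EpiLC WT. The fibroblast sum was higher in each EpiLC KO library than in each EpiLC WT library, with the largest difference in mean CPM in Col1a2. None of the 5 tested genes of this list was called in EpiLC KO by edgeR or DESeq2. In edgeR 1 was higher at an unadjusted p under 0.05, and the log2 fold changes ran from -0.57 to 1.95. The part of this sum in the rise of the endoderm factors was not tested. The 2-cell-like sum overlapped between the groups, at 6.13, 34.5 and 2.45 CPM in EpiLC KO replicates 1, 2 and 3, against 2.61, 1.23 and 6.35 CPM in EpiLC WT. WT replicate 2, the EpiLC WT library highest for 5 of the 6 factors, had the lowest fibroblast and 2-cell-like sums in its group. KO replicate 2, the EpiLC KO library highest for all 6 factors, had the highest 2-cell-like sum in its group. Its fibroblast sum, at 25.4 CPM, lay between those of the other KO libraries. The part of either list in the levels of the factors was not tested.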

How the data were processed

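The deposited values are unnormalized counts of reads for each gene. The authors obtained them, per the file headers, from featureCounts 2.0.1 on GENCODE M25 with no option for strand, multi-mapping or overlapping reads, so under the tool's defaults reads were counted without strand and shared reads were dropped. The submitters' processing notes also name fastp, FastQC, STAR and DESeq2 and the build GRCm38. The other column used is the summed exon length in bp, per the file headers. The table has 55487 genes, 346 without a symbol, which took at most 0.0312% of a library.

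Counts were scaled by TMM in edgeR 4.0.16 (R 4.3.3). Genes were kept by filterByExpr (minimum count 10, minimum total 15), which left 18134. All 12 libraries entered 1 quasi-likelihood fit (8 residual degrees of freedom), from which 5 contrasts were tested, and a gene was called at a Benjamini-Hochberg adjusted p under 0.05 over all genes tested. Every adjusted p is from this fit unless DESeq2 1.42.0 is named. An SE is the log2 fold change over the square root of F. Intervals on summed counts cover counting error only. CPM and FPKM were computed from the deposited counts. The fit was tested on simulated counts.

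Replicates are separate clones per the series text. EpiLC and naive libraries that share genotype and number deviated together, with Pearson r 0.145 to 0.264 across genes in all 6 pairs. Numbers were therefore taken as clones for these pairs. Pairs of the same genotype with unlike numbers had r from -0.248 to 0.048. EpiLC KO 1 and EpiLC WT 3, which share no clone, had r of 0.287, so values of this size do not by themselves identify a clone. The members, gene lists and alternatives were chosen with earlier results of these data known. Named genes were the 6 factors, up to 4 genes per list called in EpiLCs and up to 2 in naive cells by smallest adjusted p, the 2 most abundant markers per list, the 3 genes most like each factor, overlapping genes and Pcbp1. Some genes of the regulator list are not reported here, and its counts leave them out. Sox18, Foxa1, Foxa3, Gata5, Hnf4g, Rbp4, Ttr and Apoa1 were named after their values were seen. Alternatives were other scalings, filters and tests, clone or number blocks, and libraries left out.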

Additional observations from a re-analysis of the deposited data

Results flagged for a closer look

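For 3 of the 6 factors, Foxa2, Sox17 and Gata4, the difference between the knockout effects in EpiLCs and in naive cells had an adjusted p just under 0.05 in edgeR. The difference in log2 fold change was 4.9265 for Foxa2, 3.8611 for Sox17 and 3.6203 for Gata4, with adjusted p of 0.0482, 0.0478 and 0.0412. Foxa2 and Sox17 entered the test through EpiLC KO, the group where they are high, so the test is no support for them. Over the alternatives that gave a value, the call was lost in 14 of 18 for Foxa2, 12 of 19 for Sox17 and 10 of 20 for Gata4, and with the clone as a block it was lost for Foxa2 (adjusted p = 0.0783) and Sox17 (adjusted p = 0.0526). In CPM, each of the 3 genes was higher in 3 of 3 EpiLC KO libraries than in any EpiLC WT library, as were 16.1% of all genes tested. Each was lower in 3 of 3 naive KO libraries than in any naive WT library, as were 15.3% of all genes tested, and for Foxa2 this sets 1 count against 1 count, apart only by scaling. In naive cells the summed counts were small, 2 in KO and 10 in WT for Foxa2 (ratio 0.196, exact 95% interval 0.0209 to 0.92), 7 and 19 for Sox17 (0.361, 0.128 to 0.897), and 32 and 75 for Gata4 (0.418, 0.268 to 0.641).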

How the results depend on the processing

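In EpiLCs, Foxa2, Sox17, Gata4 and Sox7 were called higher in KO under every alternative that tested them, and so was Hnf4a in naive KO and in EpiLC against naive WT. With a CPM of at least 1 in 3 libraries required, Foxa2 and Sox17 were not tested, and 3 factors were called in EpiLC KO against WT and 3 in EpiLC against naive KO, fewer because fewer were tested. For the interaction, 3 factors were called in the reported fit, 5 with no filter, 1 with that stricter filter, 0 with the replicate number as a block and 0 to 3 with 1 library left out, when the count over all genes was 3 to 149. Over all the alternatives that gave a value, Foxa2 was not called in 14 of 18, Sox17 in 12 of 19 and Gata4 in 10 of 20. DESeq2 called Sox7 in it (adjusted p = 0.00814) and gave no adjusted p for Foxa2. KO and WT libraries of the same number did not deviate together (Pearson r -0.266 to 0.004), so they share only a number, and the replicate number block is no evidence on the effects.

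Directions turned for values that never passed the test. In EpiLC against naive WT, with a library left out, Foxa2 ranged from -0.1919 to 0.4933 (below 0 without EpiLC WT 1, at -0.1692, or naive WT 1), Gata4 from -0.8932 to 0.0347 (without naive WT 3), Gata6 from -0.6883 (without EpiLC WT 2) to 1.6939 and Sox17 from -0.3273 (without EpiLC WT 2) to 0.4837, and without WT 2 in both conditions Gata6 was -0.0828 and Sox17 -0.3198. In naive KO against WT, Gata6 was 0.0285 with total counts, 0.1551 with the replicate number block, 0.5933 without WT 2 in both conditions, and from -0.3268 to 0.566 with 1 library left out (above 0 without naive KO 1, at 0.1602, or naive WT 2). Hnf4a in EpiLC against naive KO ranged from -0.4325 to 0.5764 (without naive KO 3). The cause was not tested. Counts called over all genes moved over 1.5 times in KO against WT, from 678 to 2516 in naive cells and from 1375 to 3547 in EpiLCs. Low counts limit what could be detected: Foxa2, Sox17 and Sox7 had under 20 summed counts in both naive groups, and Foxa2 and Sox17 also in EpiLC WT.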
